A study of Mus musculus with 3 samples.

Results

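The genes described here are 8 adhesion molecules through which the endothelium, the inner cell layer of blood vessels, catches leukocytes and lets them pass. They were taken by name from the 32285 genes of the annotation, and all 8 were found: Selp, Sele, Icam1, Icam2, Vcam1, Pecam1, Cd99l2 and Mcam. They were measured by single-cell RNA-seq (10x 3' v3) in cells from the intima of the inner curve of the aortic arch of C57BL/6J wild-type mice, 12 to 13 weeks old, with both sexes pooled. Untreated mice gave 2 libraries (control replicates 1 and 2), and mice that had received 30 µg of lipopolysaccharide (LPS), a cell-wall product of bacteria, by vein 18 h before harvest gave 1 library. Each library pooled 5 to 10 mice, and all tissue was handled with actinomycin D, a blocker of transcription.

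Leukocytes leave the blood in steps. The selectins P-selectin (Selp) and E-selectin (Sele) tether rolling cells through sugars on leukocyte glycoproteins, ICAM-1 (Icam1), ICAM-2 (Icam2) and VCAM-1 (Vcam1) hold them through leukocyte integrins, and PECAM-1 (Pecam1), CD99L2 (Cd99l2) and CD146 (Mcam) sit at the borders between endothelial cells, where leukocytes cross. Selp, Sele, Icam1 and Vcam1 are known as targets of NF-kB, the transcription factor activated by LPS and inflammatory cytokines, while Icam2 and Pecam1 are known for steady expression in resting endothelium. The inner curve of the arch has disturbed flow and is a site where leukocytes enter the resting vessel wall.

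Libraries stood apart in depth and RNA quality. They held between 1269 and 6000 barcodes and between 4940996 and 21864072 UMIs (unique molecular identifiers, which count captured RNA molecules). In the order control replicate 1, control replicate 2, LPS library, which holds for every triplet of values below, the ribosomal RNA-like Gm42418 made up 9.81%, 1.59% and 28.6% of all UMIs and haemoglobin 44.0%, 7.91% and 25.2%. In the LPS library 3432 of 5156 kept barcodes lay in unnamed clusters rich in Gm42418. Pairs of libraries shared 1 to 6 barcodes. The control replicates are numbered in the order of their records, as the labels give no number, and no label says whether the libraries came from separate experiments, so the spread that p-values rest on may be technical.

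Cell classes were rebuilt from marker genes, with the 8 genes left out of the clustering, and are named by likeness. There were 18 endothelial-like cells in control replicate 1, 49 in control replicate 2 and 187 in the LPS library, with median depths of 7895.5, 8731 and 4998 UMIs per cell. The endothelial identity was carried by 16 markers, of which 2, 1 and 0 were at 0, and Cdh5, which encodes VE-cadherin of endothelial junctions, stood at 444, 501 and 523 CPM (UMIs per sum of a class, scaled to a common total). The summed level of those 16 markers was 6294, 6948 and 3324 CPM. RNA of other cells was also present, since the fibroblast markers summed to 1755, 2670 and 1525 CPM, the smooth muscle markers to 324, 2319 and 497 CPM and the erythroid markers to 229, 5258 and 4754 CPM. Of the neutrophil markers 11, 10 and 5 of 11 were at 0, and of the mast cell or basophil markers 7, 7 and 6 of 7. Control and LPS cells fell into different clusters, and the part of these differences in the results below was not tested.

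In endothelial-like cells after LPS, both selectins and Icam1 rose, Icam2 fell, and Vcam1, Pecam1, Cd99l2 and Mcam did not pass the test. The test was edgeR's quasi-likelihood test on UMIs summed per library, with Benjamini-Hochberg adjustment over all 7969 genes tested. Over all genes tested 5.41% were called higher and 4.52% lower, against 3 and 1 of the 8 adhesion genes. The median log2 fold change of the 8 was 0.04, and that of all genes tested was 0.00. Scaled by total UMIs, without the composition factors, 336 genes were called higher and 497 lower, in place of 431 and 360, and the median of all genes was -0.20, while each of the 8 genes kept its direction and its side of the threshold. The LPS value lay outside both controls for 7 of the 8 genes, as it did for 70.6% of all genes tested. These 8 genes are known endothelial genes, and several are known LPS targets, so their choice was not blind to a response.

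**Figure D1:**
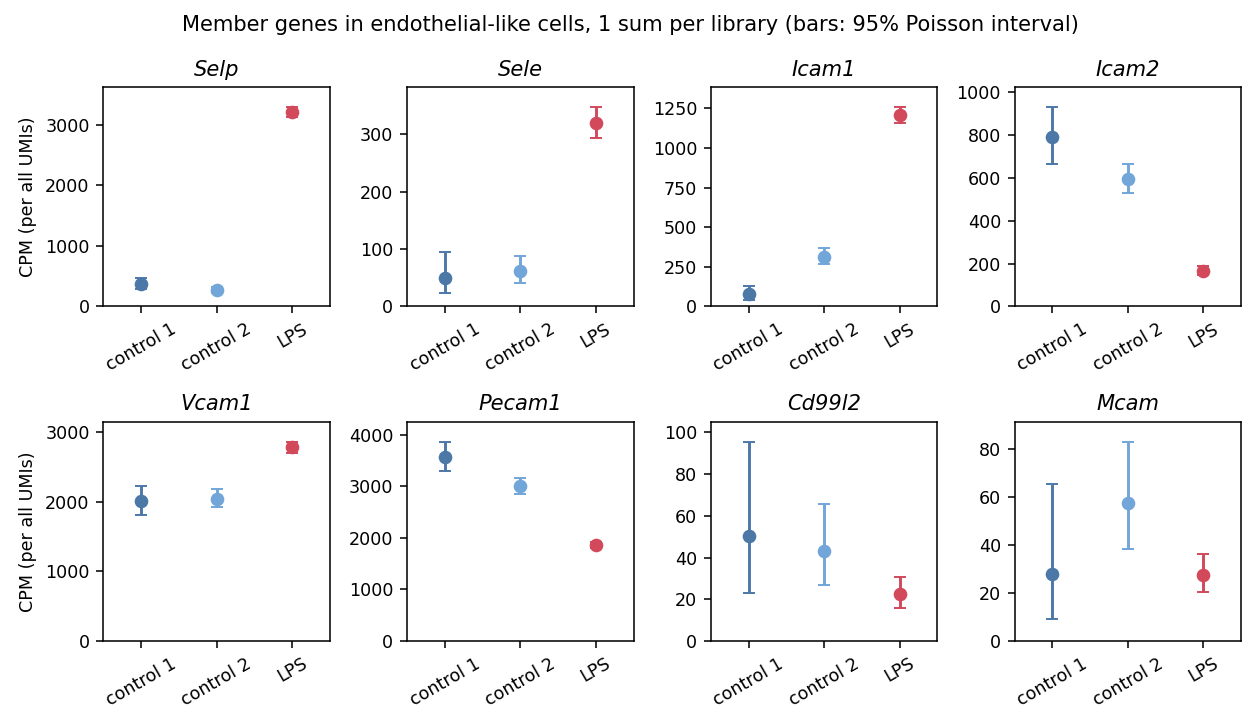
Level of each of the 8 genes in endothelial-like cells of each library, as CPM per all their UMIs, with Poisson 95% intervals (exact) that cover counting error only. Each panel has its own axis from 0. The LPS point is highest for Selp, Sele, Icam1 and Vcam1 and lowest for Icam2, Pecam1, Cd99l2 and Mcam, and for Mcam it is next to control replicate 1.

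Selp had the largest fitted rise among the 8 genes, although Icam1 rose more against control replicate 1 alone (4.10 against 3.26, log2) and Sele with the stricter cell filter (3.87 against 3.76). P-selectin is stored in endothelial granules and reaches the surface within minutes of stimulation, and in mice its gene is also transcribed in response to inflammation. Endothelial-like sums held 67 Selp UMIs in control replicate 1, 132 in control replicate 2 and 5738 with LPS, which are 376, 261 and 3608 CPM after scaling by TMM factors (edgeR's normalization for composition). The LPS value was above both controls, which differed little beside that gap. The log2 fold change was 3.51 ± 0.55 (SE, 95% interval 2.44 to 4.59, edgeR adjusted p = 1.83e-08).

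Sele, which encodes the selectin made by activated endothelium, was low in resting intima. Its sums held 9, 30 and 572 UMIs, or 50.5, 59.4 and 360 TMM-scaled CPM. Both controls were low and the LPS value was above them. Sele rose by a log2 value of 2.68 ± 0.52 (SE, 95% interval 1.65 to 3.71, edgeR adjusted p = 1.70e-05).

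Selp and Sele lie near each other on mouse chromosome 1, in the annotation of GENCODE M21 on GRCm38. Sele runs from 164048234 to 164057677 and Selp from 164115264 to 164150026, both on the plus strand and 57586 bp apart. The 250 bases upstream of their RefSeq starts (GRCm38.p6, chr1:164115014-164115263 for Selp and chr1:164047984-164048233 for Sele, plus strand, 5' to 3') are shown because both genes rose. Capitals mark matches to an NF-kB-like motif (GGG, any 5 bases, CC), the AP-1 motif TGANTCA and the TATA box TATAAA, each searched on both strands.
Selp: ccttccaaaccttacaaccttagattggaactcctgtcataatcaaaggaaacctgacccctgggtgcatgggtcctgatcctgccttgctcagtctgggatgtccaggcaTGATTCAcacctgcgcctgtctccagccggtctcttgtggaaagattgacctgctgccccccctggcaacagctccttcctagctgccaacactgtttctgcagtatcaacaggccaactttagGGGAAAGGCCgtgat
Sele: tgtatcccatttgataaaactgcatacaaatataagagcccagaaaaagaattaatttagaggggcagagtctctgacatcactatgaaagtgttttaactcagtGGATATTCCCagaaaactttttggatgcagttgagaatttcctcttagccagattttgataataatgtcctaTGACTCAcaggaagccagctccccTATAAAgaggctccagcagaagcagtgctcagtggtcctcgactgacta
In the Selp window the capitals are, from left to right, an AP-1 match from 139 to 133 bases before the start and an NF-kB-like match from 15 to 6 bases before it. In the Sele window they are an NF-kB-like match read on the opposite strand from 145 to 136 bases before the start, an AP-1 match from 73 to 67 bases before it and a TATA box match from 49 to 44 bases before it. Of the 32851 upstream windows of this length in the RefSeq table, 45.8% held that NF-kB-like motif, 6.75% held TGANTCA and 12.4% held TATAAA. No factor's binding was measured, and a match is a description of the letters only.

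Among the ligands of leukocyte integrins, Icam1 rose and Icam2 fell in the same cells. ICAM-1 is the inducible ligand of the beta-2 integrins LFA-1 and Mac-1. Icam1 sums held 14, 153 and 2154 UMIs, or 78.6, 303 and 1354 TMM-scaled CPM. The LPS value was above both controls, and the controls themselves lay far apart. The log2 fold change was 2.76 ± 0.53 (SE, 95% interval 1.71 to 3.80, edgeR adjusted p = 1.17e-05). It was 2.16 against control replicate 2 alone and 4.10 against control replicate 1 alone, and the call was lost with DESeq2's Wald test (adjusted p = 0.493).

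Icam1 lies on chromosome 9, from 21015985 to 21028817 on the plus strand. Its RefSeq upstream window (GRCm38.p6, chr9:21015690-21015939, plus strand) is shown for the same reason, with matches to GGAAATTCC, a second NF-kB-like motif, and to the motif GGG, any 5 bases, CC in capitals.
Icam1: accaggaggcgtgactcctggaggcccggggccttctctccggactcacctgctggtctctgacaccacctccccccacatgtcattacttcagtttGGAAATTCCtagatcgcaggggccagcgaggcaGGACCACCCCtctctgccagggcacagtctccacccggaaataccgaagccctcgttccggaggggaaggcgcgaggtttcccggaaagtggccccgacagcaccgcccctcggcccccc
The first match is GGAAATTCC, from 153 to 145 bases before the start, and the other is GGG, any 5 bases, CC on the opposite strand, from 120 to 111 bases before it. GGAAATTCC was in 94 of the 32851 windows, 0.286%. RefSeq windows were matched for 5 of the 8 genes. The window of Cd99l2 held 0 matches to any of the 4 motifs, and that of Mcam held 7 matches to GGG, any 5 bases, CC, some of which overlap.

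ICAM-2, encoded by Icam2, is a ligand of LFA-1 that resting endothelium displays constantly. Its sums held 141, 290 and 298 UMIs, or 792, 574 and 187 TMM-scaled CPM. The LPS value was below both controls. Icam2 fell by 1.86 on the log2 scale, with an SE of 0.59 and an edgeR adjusted p of 0.0215. With at least 1000 UMIs and at most 10% mitochondrial UMIs per cell, the call was lost (log2 fold change -1.61, adjusted p = 0.055).

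VCAM-1, encoded by Vcam1, is the endothelial ligand of the integrin VLA-4 of monocytes and lymphocytes. Its sums held 360, 1000 and 4982 UMIs, or 2022, 1978 and 3133 TMM-scaled CPM. The controls were nearly equal and the LPS value was above both, but the difference did not pass the test (log2 fold change 0.65 ± 0.53, SE, 95% interval -0.40 to 1.69, edgeR adjusted p = 0.574). The interval excludes a log2 rise as large as that fitted for Selp. All deposited barcodes were also gated by markers, without clustering and without any limit on UMIs, genes or mitochondrial UMIs, which left 117, 332 and 265 cells. With that gate the log2 fold change of Vcam1 was 1.45 and it passed (edgeR adjusted p = 2.96e-04).

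The 3 genes of leukocyte passage gave no call. PECAM-1, encoded by Pecam1, binds itself on neighbouring cells and on crossing leukocytes. Pecam1 sums held 639, 1465 and 3322 UMIs, or 3589, 2898 and 2089 TMM-scaled CPM, and the LPS value was below both controls (log2 fold change -0.63 ± 0.56, SE, 95% interval -1.72 to 0.46, edgeR adjusted p = 0.611). Both Pecam1 and Icam2 lie on the minus strand of chromosome 11, 266141 bp apart, with Ern1 and Tex2 between them.

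Cd99l2, whose product acts late in crossing, held 9, 21 and 40 UMIs, or 50.5, 41.5 and 25.2 TMM-scaled CPM, with the LPS value below both controls (log2 fold change -0.83 ± 0.56, SE, edgeR adjusted p = 0.443). Mcam, whose product CD146 is also found on smooth muscle cells and pericytes, held 5, 28 and 49 UMIs, or 28.1, 55.4 and 30.8 TMM-scaled CPM (log2 fold change -0.56 ± 0.53, SE, edgeR adjusted p = 0.644). On this scale the LPS value of Mcam lay between the controls, and the 95% interval of its difference, -1.61 to 0.48, spans both directions.

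The LPS library enters as 1 sample and is assumed to vary like the controls. Free RNA of a gene was estimated as its lowest CPM over the named classes with at least 20 cells in a library. For Selp, Sele, Icam1 and Icam2 this was 0 in control replicate 1. With LPS it was 2.28%, 1.71%, 2.70% and 0% of the endothelial-like level, in that order. How much free RNA remained after subtraction was not tested. Once an estimate of free RNA was subtracted, edgeR called 0 genes either way, 297 of 7800 genes had an unadjusted p under 0.05, and the log2 fold changes were 3.27 for Selp, 2.47 for Sele, 2.64 for Icam1 and -2.05 for Icam2 (adjusted p = 0.9997 for all 4).

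**Figure D2:**
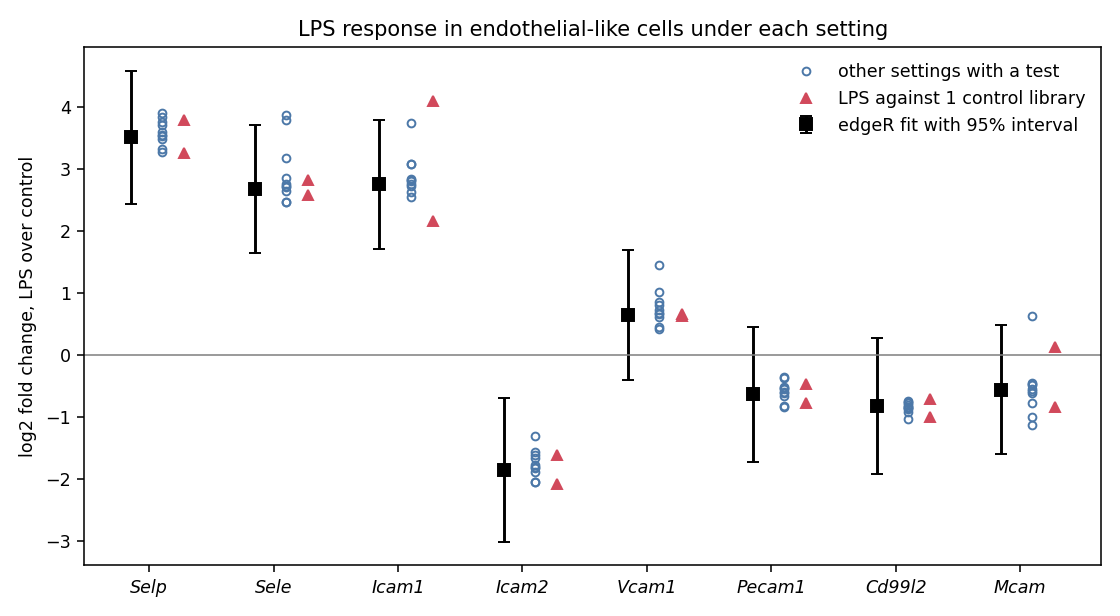
Log2 fold change of each gene in endothelial-like cells, LPS over control. Squares are the edgeR fit with its 95% interval, open circles are 10 other settings with a test, and triangles set the LPS library against 1 control library with no test. All points of Selp, Sele and Icam1 lie above 0 and all points of Icam2, Pecam1 and Cd99l2 below it, while those of Mcam lie on both sides.

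Levels over whole libraries do not rest on cell filters or names. Over all deposited barcodes Selp stood at 24.5, 40.8 and 521 CPM, Sele at 2.23, 3.49 and 51.2, and Icam1 at 15.6, 47.7 and 231. For these 3 genes the LPS library was above both controls. Vcam1 stood at 110, 206 and 517 CPM, likewise highest with LPS. Icam2 stood at 62.5, 124 and 23.3 CPM, lowest with LPS. Pecam1 (328, 614 and 323), Cd99l2 (10.9, 26.1 and 9.92) and Mcam (7.29, 89.5 and 9.65) had control replicate 2 apart from the other libraries. In such whole-library sums, fewer cells of a type and less RNA per cell cannot be told apart.

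The share of endothelial-like cells with at least 1 UMI was compared after each cell was thinned to 1000 UMIs, since the LPS cells were shallower. Selp was found in 16.7% of 18 cells, 20.4% of 49 cells and 80.2% of 187 cells. Clopper-Pearson 95% intervals were 3.58 to 41.4%, 10.2 to 34.3% and 73.8 to 85.7%, and they cover counting error only. Among cells with Selp the mean was also higher with LPS, at 1.67, 1.20 and 3.26 UMIs per 1000. Before thinning the shares were 50.0%, 71.4% and 96.3%. In lymphoid-like cells, which should lack P-selectin, the thinned shares were 0.629%, 1.48% and 12.5%, at median depths of 3879, 4140.5 and 4955.5 UMIs before thinning.

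Sele was found in 0 of 18, 1 of 49 and 34 of 187 thinned endothelial-like cells, that is 0%, 2.04% and 18.2% (unthinned 11.1%, 10.2% and 43.9%). The 0 of 18 allows up to 18.5% of cells with a Sele UMI at 1000 UMIs per cell (upper Clopper-Pearson bound), which does not limit the share of cells that express it, and 2 of those 18 cells held Sele before thinning. So the transcript of E-selectin was seen in a minority of LPS cells at this depth, against 1.92% of lymphoid-like cells. Icam1 was found in 11.1%, 22.4% and 47.6% of thinned cells (unthinned 33.3%, 67.3% and 85.6%), against 7.69% of LPS lymphoid-like cells.

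Icam2 went the other way, from 50.0% and 42.9% of thinned control cells to 8.02% with LPS (unthinned 88.9%, 91.8% and 41.2%). Lymphoid-like cells, which carry ICAM-2 themselves, had Icam2 in 10.1%, 9.25% and 3.85%. Pecam1 was found in 94.4%, 93.9% and 66.3% of thinned cells (unthinned 100%, 100% and 92.0%), with intervals of 72.7 to 99.9%, 83.1 to 98.7% and 59.0 to 73.0%. Vcam1 was found in 33.3%, 55.1% and 74.9% (unthinned 83.3%, 89.8% and 89.3%). Its mean among cells with Vcam1 was 3, 3.78 and 2.93 UMIs per 1000, with LPS lowest. Thinned to 2000 UMIs per cell, that mean was 4.4, 5 and 5.28 UMIs, with LPS highest, so no order was set.

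Cd99l2 was found in 5.56%, 8.16% and 2.67% of thinned endothelial-like cells, and Mcam in 0%, 2.04% and 1.07%. The shares of Mcam were at or below those of lymphoid-like cells (0.629%, 6.47% and 1.92%) and are read as background. Unthinned, Cd99l2 was in 38.9%, 34.7% and 17.1% of cells and Mcam in 16.7%, 32.7% and 16.04%.

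**Figure D3:**
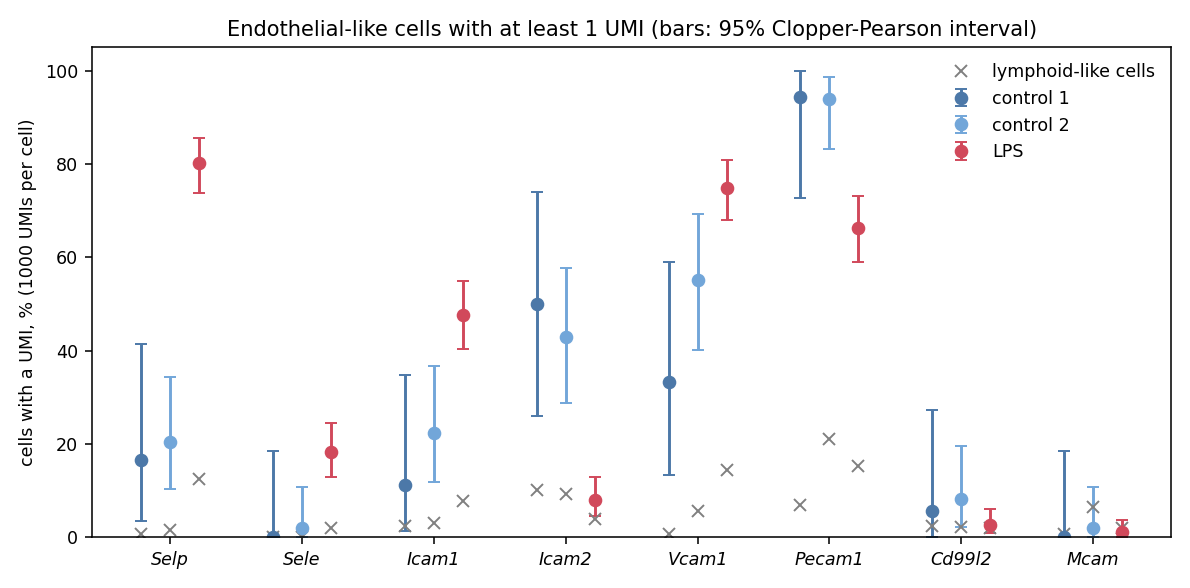
Share of endothelial-like cells with at least 1 UMI of each gene after thinning to 1000 UMIs per cell, by library, with Clopper-Pearson 95% intervals. Grey crosses are the same share in lymphoid-like cells. The LPS share of Selp, 80.2%, lies above the intervals of both controls, and that of Icam2, 8.02%, lies below them.

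Co-detection of the genes was counted in single cells. Of 187 thinned LPS endothelial-like cells, 23 held Selp, Sele and Icam1 at once and 25 held none of them, against 0 with all 3 in either control. Without thinning, 79 LPS cells, 0 cells of control replicate 1 and 3 of control replicate 2 held all 3. Icam1 was found in 53.3% of LPS cells with Selp (95% interval 45.0 to 61.5%) and in 24.3% of those without (11.8 to 41.2%). The same direction held for Vcam1, at 80.7% against 51.4%, and for Pecam1, at 70.7% against 48.6%. It also held for Sele, at 20% against 10.8% (intervals 13.9 to 27.3% and 3.03 to 25.4%). Icam2, at 10.0% against 0%, and Cd99l2, at 3.33% against 0%, had this direction too. Mcam went the other way, at 0.67% against 2.70%. Intervals were apart for Icam1 and Vcam1 and overlapped for Pecam1, Sele, Icam2, Cd99l2 and Mcam. So the direction was not particular to the genes called higher, although among the others only Vcam1 had intervals apart. Cells of 1 library are not replicates, so these are descriptions.

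The LPS endothelial-like cells formed 3 main sub-clusters that differed in the level of the adhesion genes, although those genes were not used to form them. The sub-cluster led by Csf3, Aqp1 and Ctla2a held 31 cells (median 9875 UMIs, 10.8% Gm42418), and Selp and Sele were also among its leading genes. It had 4466 CPM of Selp, 471 of Sele, 1343 of Icam1 and 3420 of Vcam1. The sub-cluster led by Ccl2, Tmem252 and Pthlh held 56 cells (median 12452 UMIs, 9.87% Gm42418). It had 3303 CPM of Selp, 317 of Sele, 1239 of Icam1 and 3107 of Vcam1. The sub-cluster led by Gbp4, which also had the lowest depth (99 cells, median 4097 UMIs) and 18.2% Gm42418, had 2127 CPM of Selp, 208 of Sele, 1061 of Icam1 and 1786 of Vcam1. All 3 were far above the control values for Selp. The Icam1 intervals of the sub-clusters led by Csf3 and by Ccl2 overlap (1233 to 1460 and 1165 to 1316 CPM). Thinned to 1000 UMIs per cell, Icam1 was found in 74.2% of the cells led by Csf3, 35.7% of those led by Ccl2 and 46.5% of those led by Gbp4. So its order by share was not its order by CPM. Icam2 stood at 165, 230 and 70.1 CPM in that order.

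Control endothelial-like cells formed 2 sub-clusters. In the one led by Cldn5 and Podxl (11 and 27 cells in control replicates 1 and 2), Icam2 stood at 942 and 810 CPM and Icam1 at 9.05 (1 UMI) and 216 CPM. In the one led by Thbs1, Emcn and Bmp6 (7 and 22 cells), Icam2 stood at 541 and 360 CPM and Icam1 at 190 and 420 CPM. So within each control library the sub-cluster with more Icam2 had less Icam1. Selp followed Icam1, with 326 and 200 CPM in the first against 453 and 347 CPM in the second, although its intervals in control replicate 1 overlap (228 to 451 and 308 to 643). Vcam1 followed Icam2, with 2788 and 2161 CPM against 760 and 1926 CPM, although its intervals in control replicate 2 overlap (1984 to 2350 and 1753 to 2113). Sele turned between the libraries, with 81.5 and 15.7 CPM in the first against 0 and 111 CPM in the second. These rest on few cells and had no test.

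Endothelial-like cells (18 in control replicate 1) were set beside other classes with at least 20 cells in a library, and had the highest CPM in 21 of 24 pairs of gene and library. The CPM here are per all UMIs of a class. For Selp the endothelial-like level was 374 CPM in control replicate 1, 270 in control replicate 2 and 3210 with LPS, and the next class had 4.83 (phagocyte-like), 33.6 (phagocyte-like) and 228 CPM (adipocyte-like). For Vcam1 it was 2012, 2049 and 2787 CPM, and the next class had 143 (fibroblast-like), 218 (phagocyte-like) and 320 CPM (fibroblast-like). For Pecam1 it was 3572, 3002 and 1858 CPM, and the next class had 63.4 (lymphoid-like), 376 (smooth muscle-like) and 134 CPM (lymphoid-like). In each of these cases the exact Poisson 95% intervals of both classes were apart. Without haemoglobin, mitochondrial genes and Gm42418 in the total, the next class for Selp, Vcam1 and Pecam1 with LPS was erythroid-like. It held 1024, 1116 and 595 CPM in that order, against 3994, 3468 and 2313 CPM in endothelial-like cells. In control replicate 2 it was next as well, at 38.7, 255 and 681 CPM against 309, 2341 and 3430 CPM.

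Per all UMIs, Icam2 was next highest in lymphoid-like cells in every library, at 71.9, 86.7 and 38.2 CPM, against 788, 594 and 167 CPM in endothelial-like cells. Icam1 was next highest in phagocyte-like cells of the controls, at 24.2 and 49.7 CPM against 78.3 and 313, and in fibroblast-like cells with LPS, at 178 against 1205. In control replicate 1 the intervals of Icam1 overlap (42.8 to 131 and 7.84 to 56.4). Sele with LPS stood at 320 CPM in endothelial-like, 65.1 in adipocyte-like (6 UMIs) and 22.8 in fibroblast-like cells. Without haemoglobin, mitochondrial genes and Gm42418 in the total, erythroid-like cells were next for Icam2 in control replicate 2 (182 CPM, lymphoid-like 97.0). On that scale they were also next for Icam1 with LPS (454 CPM, fibroblast-like 260).

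The exceptions were Mcam and Cd99l2. Mcam of control replicate 2 was highest in smooth muscle-like cells, at 417 CPM (95% interval 319 to 534) against 57.4 CPM (38.1 to 82.9) in endothelial-like cells. The LPS library held 0 cells named smooth muscle-like, which does not show that such cells were absent. Its unnamed, Gm42418-rich sub-clusters of 2235 and 1162 barcodes had Myh11 and Tagln among their leading genes. Both scored highest for smooth muscle markers (2.04 and 2.04), too close to fibroblast markers (1.82 and 1.89) for a name. All Gm42418-rich unnamed barcodes together held 46.9% of the Mcam UMIs of that library. Among its named classes, Mcam was at 27.4 CPM in endothelial-like and 14.4 CPM in fibroblast-like cells, with intervals that overlap. Cd99l2 stood at 43.0 CPM in endothelial-like and 47.0 CPM in smooth muscle-like cells of control replicate 2, and at 22.4 CPM in endothelial-like and 32.5 CPM in adipocyte-like cells (3 UMIs) with LPS. These intervals overlap as well, as do those of both genes and the next class in control replicate 1, so no order could be set.

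**Figure D4:**
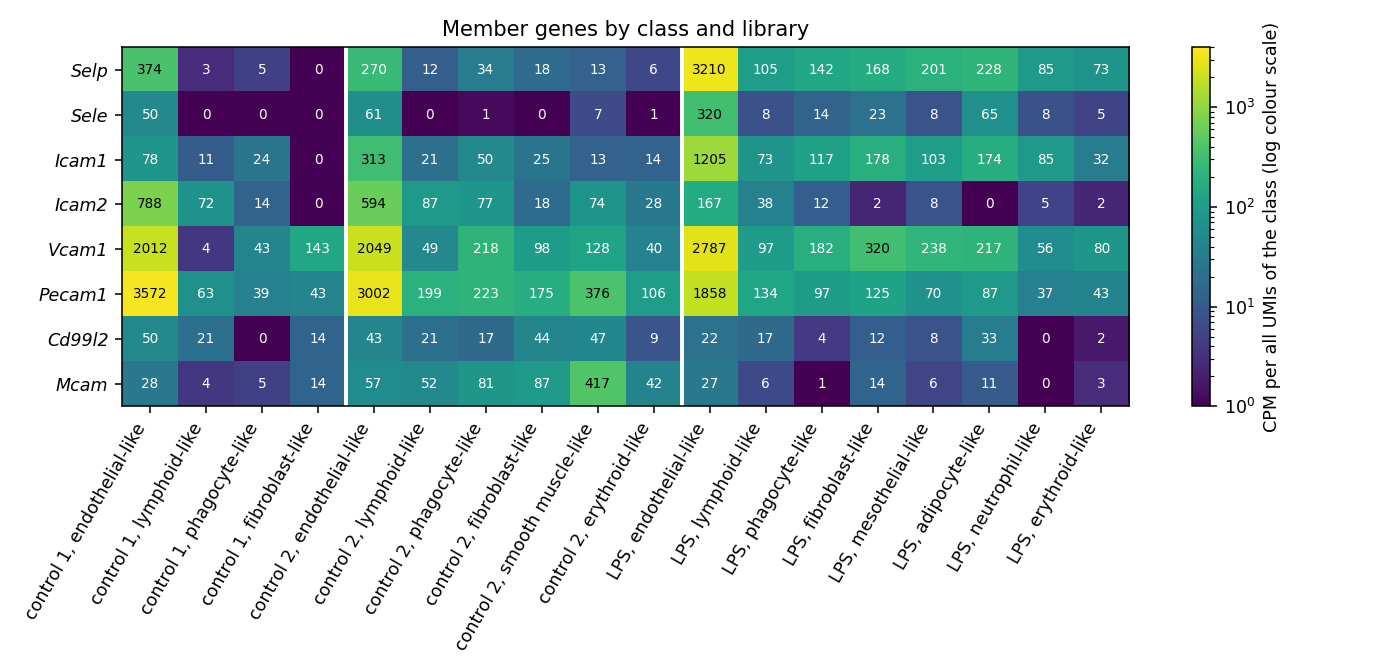
CPM of each gene over all UMIs of a class, for endothelial-like cells (18 in control replicate 1) and for other classes with at least 20 cells in a library. Colour is on a log scale from 1, and values under 1 are drawn as 1. Endothelial-like columns are brightest for Selp, Sele, Icam1, Icam2, Vcam1 and Pecam1 in every library, and Mcam is highest in smooth muscle-like cells of control replicate 2 at 417 CPM.

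Transcripts of these genes were also counted in classes that are not known to make them, and Selp and Vcam1 more so with LPS. Erythroid-like cells had 6.02 CPM of Selp in control replicate 2 and 73.3 CPM with LPS, and Vcam1 at 39.8 and 79.9 CPM. Per all UMIs, the lowest class in the LPS library stood at 2.28% of the endothelial-like level for Selp, 1.71% for Sele, 2.70% for Icam1, 2.00% for Vcam1 and 2.00% for Pecam1. For Selp, Sele and Icam1 that class was erythroid-like. Without haemoglobin, mitochondrial genes and Gm42418 in the total, it held 1024, 76.3 and 454 CPM of them, against 3994, 398 and 1499 CPM in endothelial-like cells.

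The make-up of those UMIs was compared with that of endothelial-like cells of the same library. With LPS, Selp made up 33.4% of the UMIs of the 8 genes in endothelial-like cells, 30.4% in erythroid-like cells and 29.7% in the Gm42418-rich barcodes. Icam1 made up 12.6%, 13.5% and 14.0% in the same order, Vcam1 29.0%, 33.2% and 32.9%, and Pecam1 19.4%, 17.7% and 17.9%. The shares of these 4 genes were close in all 3, while those of the scarcer genes were not: Icam2 made up 1.74%, 1.00% and 0.85%, Cd99l2 0.23%, 0.73% and 0.86%, and Mcam 0.29%, 1.20% and 0.92%. Lymphoid-like cells differed, with Icam2 at 7.97% of these UMIs against 1.74% in endothelial-like cells with LPS, and at 40.4% and 19.6% in the controls against 11.3% and 9.30%. Phagocyte-like and fibroblast-like cells with LPS had more Icam1, at 20.5% and 21.2%.

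**Figure D5:**
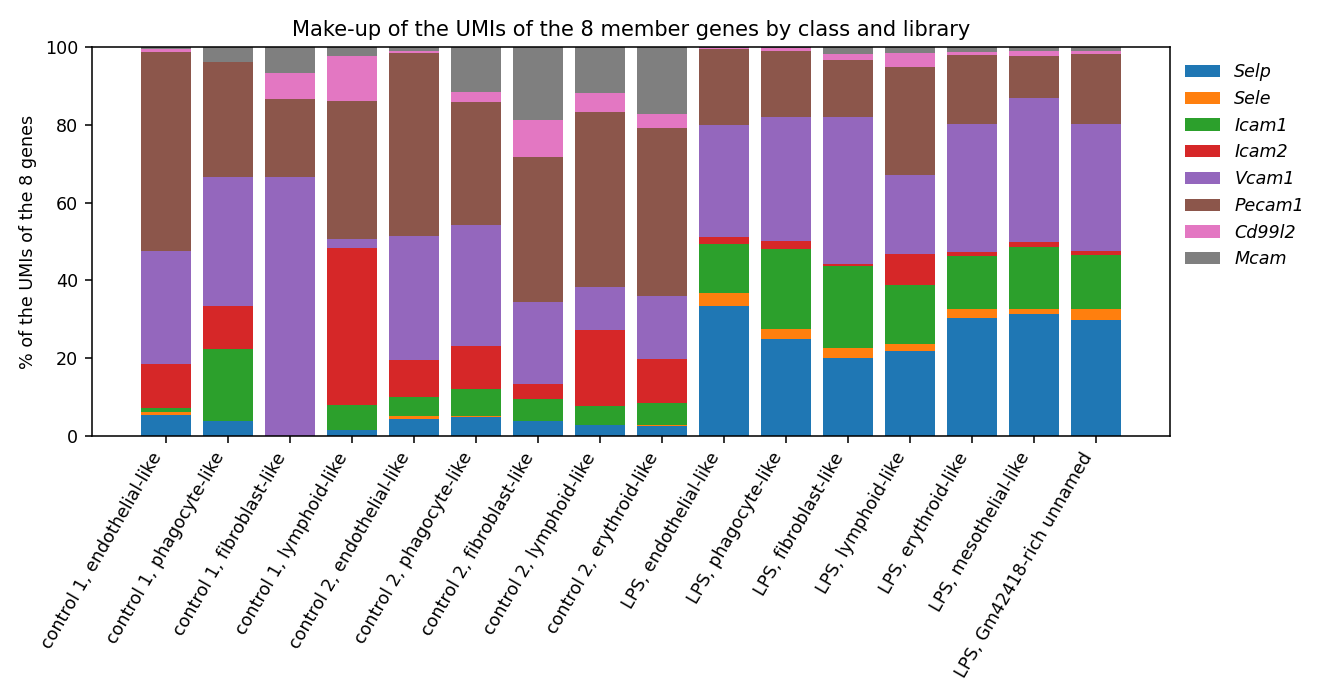
Make-up of the UMIs of the 8 genes in each class and library, in percent of their sum. With LPS the shares of Selp in endothelial-like, erythroid-like and Gm42418-rich barcodes are 33.4%, 30.4% and 29.7%, and Icam2 is largest in lymphoid-like cells of control replicate 1, at 40.4%.

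In phagocyte-like cells (81, 208 and 382 cells) 2 of the 8 genes were called higher and 2 lower by edgeR, against 3.36% and 1.75% of 8891 genes. Selp held 1, 27 and 283 UMIs, with a log2 fold change of 2.74 ± 0.57 (SE, adjusted p = 8.76e-05). Icam1 held 5, 40 and 233 UMIs and rose by a log2 value of 1.70 ± 0.55 (SE, adjusted p = 0.0423). For both the LPS value was above both controls. Against control replicate 1 alone the CPM ratio of Selp was 29.3 (counting interval 5.22 to 1162), since that library held 1 UMI, and against control replicate 2 it was 4.22 (2.84 to 6.52).

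The calls of Icam2 and Mcam in phagocyte-like cells rested on control replicate 2. Icam2 held 3, 62 and 24 UMIs (log2 fold change -1.95 ± 0.62, SE, edgeR adjusted p = 0.0387), and the CPM ratio of LPS to control was 0.156 (counting interval 0.0930 to 0.253) for control replicate 2 but 0.829 (0.252 to 4.30) for control replicate 1. Mcam held 1, 65 and 2 UMIs (log2 fold change -5.33 ± 0.90, SE, edgeR adjusted p = 3.75e-07), and the ratio was 0.0124 (0.00147 to 0.0466) for control replicate 2 but 0.207 (0.0108 to 12.2) for control replicate 1. In control replicate 2 Mcam stood between 42.2 CPM, in erythroid-like cells, and 417 CPM, in smooth muscle-like cells. Sele, Vcam1, Pecam1 and Cd99l2 did not pass. With DESeq2's Wald test none of the 8 passed in this class, with an adjusted p of 0.306 for Selp and 0.181 for Mcam, and with edgeR and no expression filter Icam2 did not (adjusted p = 0.116).

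In fibroblast-like cells (25, 75 and 211 cells) Selp, Icam1 and Vcam1 were called higher by edgeR, 3 of the 6 genes tested, against 8.31% of 5389 genes, and 0 of the 6 lower, against 5.16%. Vcam1, which activated stromal cells can make, held 10, 27 and 267 UMIs, or 146, 90.7 and 419 TMM-scaled CPM, and its LPS value was above both controls (log2 fold change 1.95 ± 0.47, SE, adjusted p = 7.82e-04). Selp held 0, 5 and 140 UMIs, with a log2 fold change of 4.01 ± 0.62 (SE, adjusted p = 9.15e-09). Icam1 held 0, 7 and 149 UMIs, with one of 3.64 ± 0.58 (SE, adjusted p = 2.99e-08). Against control replicate 1, at 0 UMIs, the LPS level was at least 3.90-fold higher for Selp and at least 4.15-fold higher for Icam1, taking 3 counts in that library as the floor. Pecam1, Cd99l2 and Mcam did not pass, and Sele and Icam2 were below edgeR's expression filter. With DESeq2's Wald test the adjusted p was 0.0525 for Selp, 0.0692 for Icam1 and 0.259 for Vcam1, so none passed.

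In lymphoid-like cells (162, 1622 and 104 cells) edgeR called 0 genes either way, which is 0% of 9672, although 1418 had an unadjusted p under 0.05. DESeq2's Wald test called 127 genes higher and 29 lower. Selp held 3, 115 and 66 UMIs, or 3.07, 11.04 and 111 TMM-scaled CPM, above both controls with LPS (edgeR log2 fold change 3.71 ± 0.61, SE, adjusted p = 0.133). It passed with DESeq2 (log2 fold change 3.86, adjusted p = 0.00588) and with edgeR when no expression filter was used (3.68, adjusted p = 1.08e-16), where Icam1, Vcam1 and, in the lower direction, Mcam passed too. Selp was also higher with LPS in erythroid-like cells, as given above, and the part of free RNA in the calls of these 3 classes was not tested.

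Whether the LPS response differed between endothelial-like cells and each other class was tested by an interaction term in a fit that had the library as block. Of 24 pairs of gene and class, 1 passed: Mcam against phagocyte-like cells (difference in log2 fold change 4.64 ± 1.16, SE, 95% interval 2.37 to 6.92, edgeR adjusted p = 0.0303). Over 11849 genes, 0.127% were called higher and 0.16% lower in the endothelial-like than in the phagocyte-like response, 0.0422% and 0.0338% against fibroblast-like cells, and 0.228% and 0.43% against lymphoid-like cells. For Selp the difference was 0.48 (95% interval -1.38 to 2.33) against phagocyte-like, -0.83 (-2.97 to 1.31) against fibroblast-like and -0.42 (-2.14 to 1.30) against lymphoid-like cells. For Icam1 it was 1.04 (-0.61 to 2.68), -1.07 (-2.98 to 0.84) and 0.69 (-0.96 to 2.34). So on the log2 scale no difference of the response of Selp or Icam1 between classes was shown, and the intervals leave room for differences of several fold. With the mixed endothelial sub-cluster of the controls added, the difference of Mcam was 4.05 and did not pass (adjusted p = 0.0639).

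Other genes of adhesion and passage were read from 3 lists in the endothelial-like test. Of 24 other endothelial adhesion and junctional molecules 18 were tested, and 2 rose, 1 fell and 15 did not pass (median log2 fold change 0.14). Over all 7969 genes tested 5.41% rose and 4.52% fell, with a median of 0.00. Itgb3, the beta-3 integrin subunit of vitronectin receptors, rose from 22.5 and 19.8 to 350 TMM-scaled CPM, with a log2 fold change of 4.07 ± 0.58 (SE, edgeR adjusted p = 5.40e-10). Cd44, a hyaluronan receptor that also binds E-selectin in some glycoforms, rose from 89.9 and 19.8 to 174 TMM-scaled CPM (1.93 ± 0.53, edgeR adjusted p = 0.00554). L1cam, an immunoglobulin-family adhesion molecule, fell by 2.71 on the log2 scale (adjusted p = 3.10e-04). Vwf, the von Willebrand factor of the granules that hold P-selectin, stood at 1056, 1185 and 616 TMM-scaled CPM, a difference that missed the threshold (edgeR adjusted p = 0.434).

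Of 24 genes of the docking structure, the membrane organisers and the shedding enzymes, 23 were tested, and 0 rose, 6 fell and 17 did not pass (median -0.35), beside 5.41% higher, 4.52% lower and a median of 0.00 over all genes tested. The 5 named were Cd81, a tetraspanin, which fell by 2.28 on the log2 scale, Cav1, Cavin1 and Cav2, which build caveolae and fell by 2.13, 1.82 and 1.60, and Timp3, an inhibitor of shedding metalloproteinases, which fell by 2.04. Their edgeR adjusted p-values ran from 0.00395 for Cd81 to 0.0406 for Cav2. Of 23 leukocyte counter-receptors and enzymes of selectin ligands, 9 were tested in endothelial-like cells, and 0 rose, 1 fell and 8 did not pass (median -0.37), beside the same 5.41% and 4.52% over all genes. The one that fell was Gcnt1, a glycosyltransferase that builds branched sugars of selectin ligands (log2 fold change -2.06, adjusted p = 0.0041).

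The genes most like each adhesion gene were sought by Pearson's r of log2(CPM + 1) over 18 sums of class and library, among 6179 genes. The sums share libraries and depth, so r is a description. Selp was most like Cyyr1 (0.96), Ctla2a (0.93) and Cxcl1 (0.92), and Sele was most like Shank3 (0.94), Cyyr1 (0.93) and Cxcl1 (0.91). Icam1 was most like Cyyr1 (0.91), Ctla2a (0.90) and Sgk1 (0.89). Cxcl1 encodes a chemokine for neutrophils, and Cyyr1 was among the markers used to name endothelial-like cells.

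Icam2 was most like Klk8 (0.94), Egfl7 (0.91) and Tnfsf10 (0.89), Vcam1 most like Emcn (0.95), Spon1 (0.94) and Ece1 (0.94), and Pecam1 most like Pkn3 (0.96), Calcrl (0.96) and Tie1 (0.95). Egfl7 and Tie1 were also naming markers, and Emcn encodes endomucin, a sialomucin of the endothelial surface. Mcam stood apart from these, being most like Fblim1 (0.92), Tpm1 (0.91) and Pcdh7 (0.91), of which Tpm1 encodes a tropomyosin of contractile filaments. Cd99l2 was most like Nmt2, Zdhhc8 and Cfl2, at 0.91, 0.91 and 0.90.

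Predicted genes on the opposite strand overlap Selp, Icam1, Vcam1, Cd99l2 and Mcam in the annotation. The sources used here do not give whether the counting used strand, so reads of those genes could not be set apart. The remaining positions on GRCm38 are chromosome 11, 106377656 to 106388075 for Icam2 and 106654217 to 106750628 for Pecam1, chromosome 3, 116109949 to 116129688, minus strand, for Vcam1, chromosome X, 71420060 to 71492849, minus strand, for Cd99l2, and chromosome 9, 44134469 to 44142727, plus strand, for Mcam.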

How the data were processed

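Droplet RNA-seq was made with the 10x 3' v3 kit, per the labels. The authors deposited whole-number UMI counts for each gene in each barcode, for which the submitters' processing notes name Cell Ranger 3.1, mm10, R 4.2.1 and Seurat 4.2.0. How barcodes were chosen, and the annotation release, are not stated in the sources used here. Barcodes were kept from 500 UMIs and 300 genes upward when mitochondrial UMIs made up no more than 15%. No doublet caller was run and doublets were not removed: 3 and 6 endothelial-like cells of control replicate 2 and the LPS library held UMIs of at least 3 macrophage markers, and 5 of control replicate 2 of at least 3 lymphoid markers. At least 3 smooth muscle markers were found in 5, 49 and 100 of the 18, 49 and 187 endothelial-like cells, and at least 3 fibroblast markers in 14, 47 and 115.

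Cells were clustered in 2 steps (scanpy 1.11.5, leidenalg 0.10.2, 2000 variable genes, Leiden resolution 1.0 then 0.5) without the 8 genes. A sub-cluster was named after a class when that class's markers lay 1.5 (log2) above their background, the 25th percentile over the sub-clusters of a library, and 0.5 above any other class, with 3 or more markers found. A name was withheld where markers of another class outnumbered its own among the leading genes, or where the sub-cluster was shallow and none of its own were there. It was also withheld where heart muscle genes led, a condition added after seeing the clusters. This naming rule was the third tried and was chosen after seeing the clusters. The first compared each sub-cluster with the rest of its library and lost the abundant lymphoid cells, and the second counted haemoglobin genes as erythroid markers. A shallow endothelial sub-cluster of the controls (49 and 131 cells, median 1660 UMIs) stayed unnamed as mixed. It scored 2.58 for endothelial and 2.12 for fibroblast markers, just short of the 0.5 margin. So the 18 and 49 endothelial-like control cells leave out these shallower cells, while the LPS library had 0 cells in that sub-cluster.

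UMIs were summed per class and library, and 4 classes were tested: phagocyte-like, fibroblast-like and lymphoid-like cells with at least 20 cells per library, and endothelial-like cells by design, although control replicate 1 held 18. The test was the quasi-likelihood test of edgeR 4.0.16, with filterByExpr and TMM factors, on 2 control libraries against 1 with 1 residual degree of freedom. On simulated data of 7598 genes for the endothelial-like comparison it recovered 3.08%, 29.2% and 69.7% of genes changed 2-, 4- and 8-fold, with 1 false call. Every gene was simulated with a dispersion of 0.1, and only genes of at least 20 CPM were changed. The simulated LPS library varied like the controls by construction, so the rate of false calls in the real data was not measured. Alternatives were DESeq2 1.42.0, its size factors, total UMIs, no filter, a stricter cell filter, a marker gate, subtracted free RNA and each control left out. After seeing the data, the mixed sub-cluster, cells of at least 3000 UMIs and the gate over all barcodes were added.

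The 8 genes, the lists and the tests were chosen with earlier results of these data known. All 8 genes are reported, and from each list up to 5 genes: those that passed with the largest change and a mean of at least 20 CPM, filled by mean CPM. The named genes of similar pattern are the 3 of highest r. Promoter windows are from RefSeq (GRCm38.p6) and positions from GENCODE M21.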

Additional observations from a re-analysis of the deposited data

Results flagged for a closer look

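The LPS response of Mcam differed between endothelial-like and phagocyte-like cells, by the test of the difference itself, with a log2 difference of 4.64 (edgeR, library as a block, adjusted p = 0.0303). With the mixed endothelial sub-cluster it was 4.05 and did not pass (edgeR adjusted p = 0.0639). The thinned share of endothelial-like cells with Mcam was at or below that of lymphoid-like cells, and rested on 0, 1 and 2 cells. In phagocyte-like cells Mcam held 1 UMI in control replicate 1, 65 in control replicate 2 and 2 in the LPS library, so the difference rests on control replicate 2, and the log2 fold change in that class was -1.91 against control replicate 1 alone. Whether RNA of smooth muscle cells, which held 417 CPM of Mcam in that library, took part in it was not tested.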

How the results depend on the processing

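In endothelial-like cells, Selp and Sele passed in 9 of 10 alternatives with a test and Icam1 and Icam2 in 8 of 10. With the estimate of free RNA subtracted the values were 3.27, 2.47, 2.64 and -2.05, none of which passed. DESeq2's Wald test ended the call of Icam1 (2.84) and the stricter cell filter that of Icam2 (-1.61). Vcam1 passed under the gate over all barcodes (1.45), and Mcam changed sign with the free RNA estimate subtracted (0.62). For Mcam that estimate was 13.5%, 73.5% and 0% of the endothelial-like level. Against 1 control at a time the log2 fold changes were 3.26 to 3.79 for Selp, 2.59 to 2.82 for Sele, 2.16 to 4.10 for Icam1, -2.08 to -1.61 for Icam2, 0.63 to 0.66 for Vcam1, -0.78 to -0.47 for Pecam1, -0.99 to -0.71 for Cd99l2 and -0.84 to 0.13 for Mcam.

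Endothelial-like genes called higher and lower numbered 431 and 360, and 336 and 497 when scaled by total UMIs. They were 112 and 99 of 5155 with DESeq2's Wald test. With the free RNA estimate subtracted they were 0 and 0 (biological coefficient of variation 0.691 against 0.278). The stricter filter gave 300 and 238, the mixed sub-cluster 601 and 619 and the gate over all barcodes 1019 and 971. With DESeq2, 62 and 20 genes were called in phagocyte-like cells (against 299 and 156), 67 and 50 in fibroblast-like cells (against 448 and 278) and 127 and 29 in lymphoid-like cells (against 0 and 0). With DESeq2's size factors in edgeR 75 lymphoid-like genes were called higher, and with no filter 521 higher and 387 lower. The interaction had 1 call, and 0 with the mixed sub-cluster.

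Outside the endothelial-like cells, signs turned against control replicate 1 alone for Pecam1 (1.25, against -0.94 with control replicate 2) and Cd99l2 (3.25 against -1.74) in phagocyte-like cells, Cd99l2 (0.10 against -1.33) and Mcam (0.35 against -2.07) in fibroblast-like cells and Mcam (0.65 against -2.73) in lymphoid-like cells, and against control replicate 2 alone for Pecam1 in lymphoid-like cells (-0.36 against 1.04). None of these had passed in the edgeR fit reported, although Mcam in lymphoid-like cells passed with no filter (-2.10). The difference from the phagocyte-like response turned for Icam2 with DESeq2's size factors (-0.042) and for Vcam1 with the mixed sub-cluster (0.057). The causes were not tested. Without haemoglobin, mitochondrial genes and Gm42418 in the total, endothelial-like cells were highest in 20 of 24 pairs of gene and library. No paired analysis was possible because there was 1 LPS library and the labels number no replicates. Precision was limited by 18 endothelial-like cells in control replicate 1 and by 1 LPS library.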
